A study of Mus musculus with 58 samples.

Results

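This account covers 40 genes of the autophagy machinery and its cargo receptors in mouse microglia, the resident macrophages of the brain. The genes were chosen by name and known role from the 25387 gene symbols that the deposited tables list. The choice was made with earlier results of these data known. All 40 are listed for the age series and for the antisense oligonucleotide (ASO) libraries of SgshKO mice, and 39 are listed for the ASO libraries of wild-type mice, where Optn is not. By role they are 5 initiation genes, 3 lipid supply genes, 6 genes of the PI3-kinase complex, 2 PI3P readers, 7 conjugation genes, 4 LC3-processing proteases, 5 LC3 and GABARAP proteins, 5 cargo receptors and 3 genes that act at fusion with the lysosome.

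Microglia were sorted from the forebrain of C57BL/6 mice as CD11b+, CD45low and CX3CR1+ cells, and their polyadenylated RNA was sequenced with strand kept (58 libraries). The age series compared SgshKO mice, a model of the lysosomal storage disease Sanfilippo syndrome type A, with wild-type (WT) mice. It holds 3 WT and 4 SgshKO libraries at 3 weeks, 2 WT and 2 SgshKO libraries at 4 months, and 4 WT and 7 SgshKO libraries at 8 months. The WT ASO set holds 4 libraries each from mice given PBS, a non-targeting control ASO, a Mitf ASO, a Tfeb ASO or a Tfe3 ASO. The SgshKO ASO set holds 8 libraries from mice given the control ASO and 8 from mice given the Mitf and Tfe3 ASOs together, so both of its arms carry the Sgsh deficiency. Each ASO was given once into the cerebral ventricle and the cells were taken 14 days later. The age of the ASO mice and the kind of Sgsh allele are not given in the sources used here. The labels do not say that libraries of a group came from separate animals, so p-values measure the spread between these libraries, which may be technical.

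Autophagy encloses cytoplasmic cargo in a double membrane, the autophagosome, and delivers it to the lysosome for breakdown. An initiation kinase complex and a lipid kinase complex start the membrane, ubiquitin-like conjugation systems attach LC3 and GABARAP proteins to it, and receptors such as Sqstm1 (p62) bind cargo on one side and LC3 or GABARAP on the other. When lysosomes work poorly, autophagosomes and receptor proteins can accumulate, and the factors Mitf, Tfeb and Tfe3 are known as activators of lysosomal and autophagy genes. The RNA level of these genes does not measure autophagic flux.

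Total counts ran from 8191508 to 27106584 per library in the age series, from 14372015 to 30378870 in the WT ASO set and from 12517838 to 30431437 in the SgshKO ASO set. All 10 microglia markers were detected in each group of the age series. Their summed level was 41775 to 53871 CPM (counts scaled to a common library size) in WT libraries, 46141 to 50295 in SgshKO libraries at 3 weeks, 30809 to 34902 at 4 months and 34519 to 38248 at 8 months. The 10 markers of neutrophils and monocytes summed to between 5.81 and 17.8 CPM in WT libraries and to between 6.66 and 35.7 CPM in SgshKO libraries at 3 weeks, with Retnlg at 0 in SgshKO at 3 weeks and in WT at 8 months, and Ly6c2 and Retnlg at 0 in WT at 4 months. In SgshKO libraries they summed to 3062 and 14952 CPM at 4 months and to between 445 and 5911 CPM at 8 months, and none of the 10 was at 0. The 6 border macrophage markers summed to 54.8 to 75.8 CPM in WT and 82.2 to 109 CPM in SgshKO at 3 weeks, 9.34 to 10.3 against 68.1 to 121 CPM at 4 months, and 15.8 to 32.1 against 56.3 to 105 CPM at 8 months, with none at 0. The 8 genes of the dissociation response summed to 3009.8 to 4966 CPM in WT and 2619 to 16087 CPM in SgshKO at 3 weeks, where SgshKO replicate 1 was the highest, to 14726 to 19074 against 9814 to 11015 CPM at 4 months, and to 5811 to 7374 against 2854 to 5164 CPM at 8 months. The part of other cells and of the dissociation response in the results was not tested. The 8-month fit was also run without replicates 1 and 3 of SgshKO, the 2 libraries with the highest neutrophil and monocyte sums. The SgshKO libraries kept still had sums of 445 to 845 CPM, against 7.96 to 13.4 CPM in WT at 8 months. That fit therefore cannot show what these cells add to the difference between the genotypes. In bulk RNA, fewer cells of a type and less RNA per cell cannot be told apart.

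Each ASO lowered its target. Mitf was at 1.01 to 2.15 CPM after the Mitf ASO against 34.5 to 50.4 CPM after the control ASO, Tfeb at 4.59 to 6.91 against 52.6 to 58.1, and Tfe3 at 34.9 to 40.5 against 192 to 202. In SgshKO mice the combined ASOs gave 7.51 to 23.2 CPM of Mitf against 60.7 to 82.1, and 75.0 to 87.1 CPM of Tfe3 against 137 to 194. The SgshKO label rests on the submitters, since the position of the Sgsh lesion is not known here and reads from Sgsh check nothing.

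At 8 months, 9 of the 40 genes were higher in SgshKO than in WT microglia and 9 were lower. That is 22.5% in each direction, against 21.6% higher and 18.9% lower among all 14309 genes tested, so the count itself is near the background. The cargo receptors Optn and Sqstm1 and 4 of the 5 LC3 and GABARAP genes were higher, with Becn1, Atg5 and Atg10, while the lower genes lay in the initiation, lipid supply, PI3-kinase, PI3P reader, conjugation, protease and fusion groups. The PI3-kinase and conjugation groups held genes of both directions, and no test of roles was run. The median log2 fold change was -0.01 over the 40 genes and 0.02 over all genes tested. All calls here use edgeR's quasi-likelihood test with p-values adjusted over all genes tested, at a threshold of 0.05, and all fold changes are SgshKO over WT unless stated.

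At 3 weeks 5 of the 40 genes were higher (12.5%, against 5.31% of all genes) and none lower (3.72% of all genes). For the 0 lower genes, edgeR gave 0 at an unadjusted p under 0.05, and DESeq2 and limma on TPM also gave 0. At 4 months 5 were higher (12.5%, against 10.3% of all genes) and 3 lower (7.5%, against 9.26%). With 2 libraries a group, the 2794 genes called at 4 months fell to 1688 and 1441 when the first or the second WT library was left out, and to 1623 when the second SgshKO library was. Groups of 2 libraries can also lie apart without a called difference. Those of Tfeb and Tfe3 did so at 4 months (edgeR adjusted p = 0.411 and 0.426). A lack of overlap at 4 months, as given below, therefore says little by itself. Optn, Gabarap, Sqstm1 and Map1lc3b were called higher at each of the 3 ages. The median over the 40 genes was 0.05 at 3 weeks and 0.05 at 4 months, and over all genes -0.02 and 0.02.

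**Figure D1:**
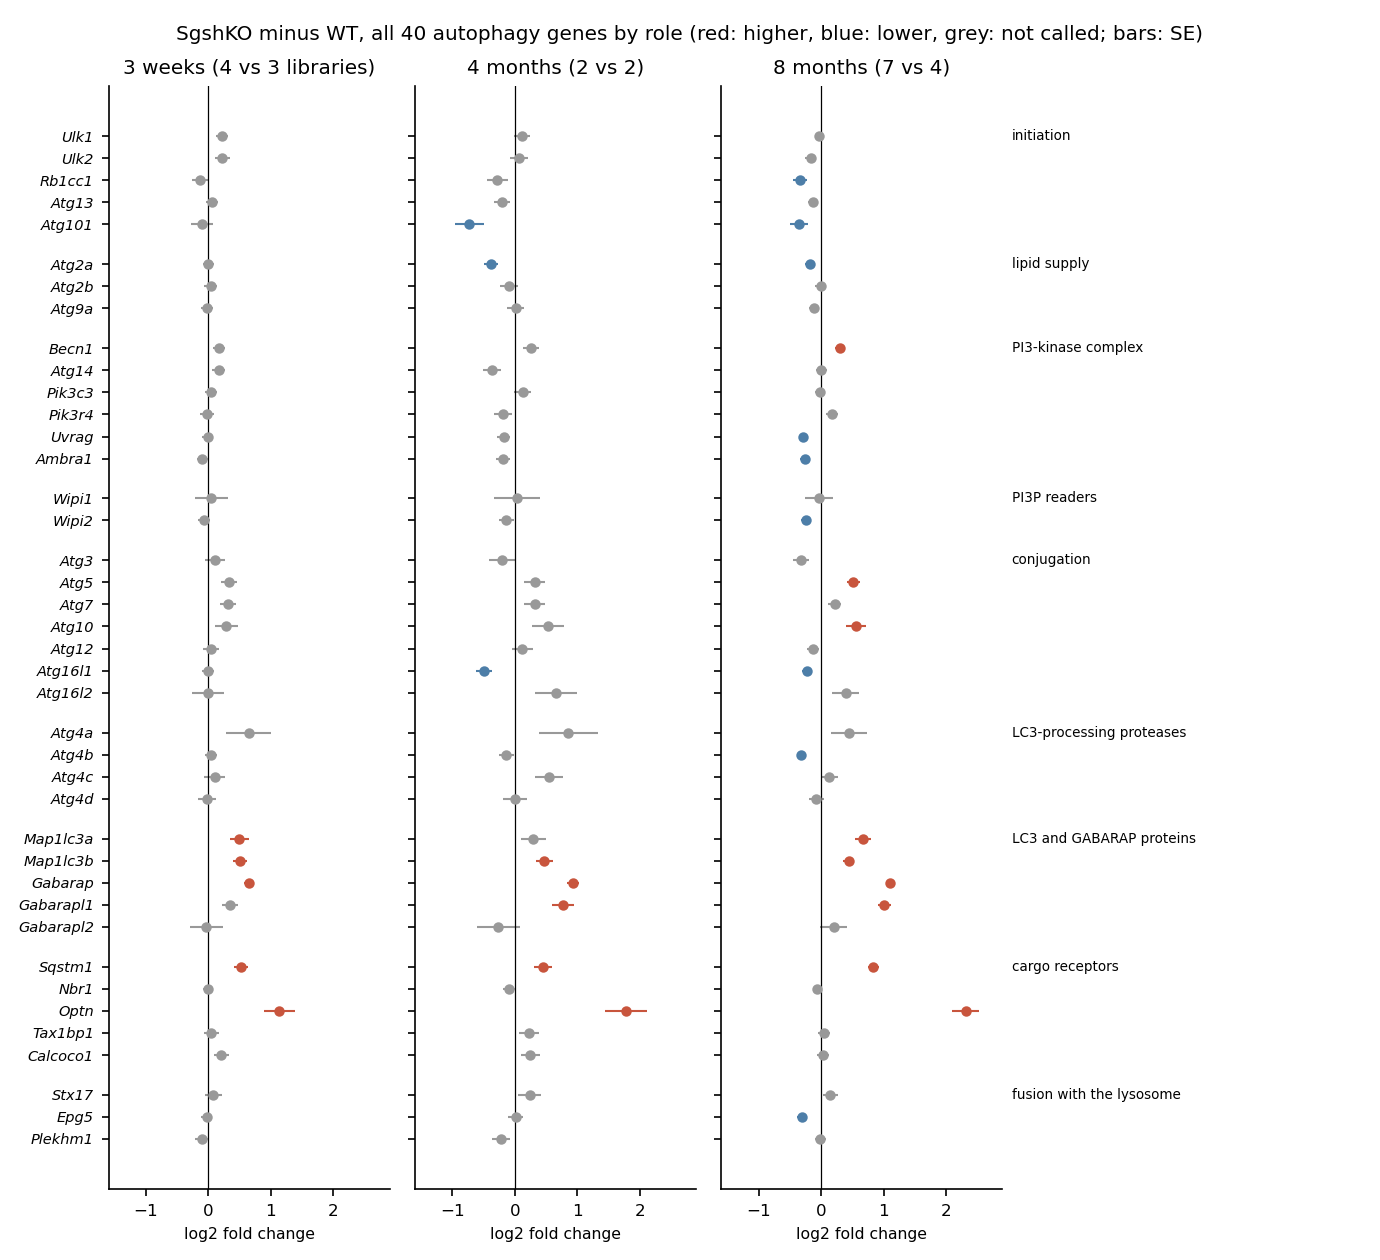
Log2 fold change of SgshKO over WT (x axis) for each of the 40 genes (y axis), grouped by role, at 3 weeks, 4 months and 8 months. Points are edgeR estimates, bars 1 standard error that restates the test, red and blue points passed the threshold as higher and lower, and grey points did not. Optn lies farthest to the right at each age, reaching 2.32 at 8 months, while no initiation or lipid supply gene passed the threshold on the right at any age.

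Optn, the receptor optineurin, links ubiquitin-tagged bacteria and damaged mitochondria to LC3. In WT libraries it was near the lower end of what the data measure. It was at 4.42, 3.61 and 3.13 CPM at 3 weeks, 3.19 and 3.66 CPM at 4 months, and 3.54, 3.15, 2.64 and 2.65 CPM at 8 months. In SgshKO libraries it was at 7.31, 8.13, 9.00 and 8.18 CPM at 3 weeks and at 8.31 and 15.3 CPM at 4 months. At 8 months the 7 SgshKO libraries ran from 9.49 to 18.9 CPM with a median of 16.1. Each SgshKO library was above each WT library of its age, and the 8-month SgshKO libraries were all above those of 3 weeks. The log2 fold change was 1.13 ± 0.25 (SE; edgeR adjusted p = 0.0032) at 3 weeks, 1.78 ± 0.33 (adjusted p = 0.000386) at 4 months and 2.32 ± 0.22 (4.56e-09) at 8 months. Below, a further value in parentheses after a fold change is likewise its adjusted p. Leaving out any 1 library kept the call at each age. Without the 2 libraries with the highest neutrophil and monocyte sums the 8-month value was 2.25.

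Sqstm1 encodes p62, the receptor that carries ubiquitin-tagged aggregates to the autophagosome. At 3 weeks it was at 149.8, 148 and 156 CPM in WT and at 243, 205, 217 and 204 CPM in SgshKO libraries. At 4 months it was at 170.1 and 191 CPM against 241 and 253 CPM. At 8 months WT libraries had 161, 179, 163 and 154 CPM, and SgshKO libraries ran from 219 to 345 CPM with a median of 292. The groups did not overlap at any of the 3 ages, and 8-month SgshKO replicate 2 was the lowest of its group. The log2 fold change was 0.52 ± 0.11 (edgeR adjusted p = 0.00158) at 3 weeks, 0.45 ± 0.14 (0.0224) at 4 months and 0.84 ± 0.09 (3.94e-08) at 8 months. With 2 libraries a group, the 4-month adjusted p was 0.177 without WT replicate 1, 0.0734 without SgshKO replicate 1 and 0.191 without SgshKO replicate 2, so the call was lost. The other receptors did not pass the test at 8 months. Nbr1, which works beside p62, had a log2 fold change of -0.07 ± 0.07, Tax1bp1 0.05 ± 0.10 and Calcoco1 0.04 ± 0.10.

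Gabarap, a GABARAP protein that acts in autophagosome closure and fusion, had the smallest adjusted p of the 40 genes at each age. It was at 135, 128 and 143 CPM in WT and 196, 225, 208 and 223 CPM in SgshKO libraries at 3 weeks. At 4 months it was at 140.0 and 137 CPM against 275 and 256 CPM. At 8 months WT libraries had 118, 125, 115 and 119.7 CPM and SgshKO libraries 244 to 290.2 CPM, with a median of 253. All SgshKO libraries of the 3 ages were above all WT libraries, and the 8-month groups were tight and far apart. On the log2 scale the difference was 0.65 ± 0.08 (edgeR adjusted p = 1.49e-06), 0.93 ± 0.10 (2.7e-07) and 1.11 ± 0.06 (9.17e-13) at 3 weeks, 4 months and 8 months. Without the 2 libraries with the highest neutrophil and monocyte sums the 8-month value was 1.097.

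Gabarapl1, its close relative, was at 22.9, 23.2 and 21.2 CPM in WT and at 29.8, 29.9, 24.8 and 29.0 CPM in SgshKO libraries at 3 weeks. At 4 months it was at 37.6 and 31.9 CPM against 67.6 and 51.2 CPM. At 8 months WT libraries had 28.5, 31.4, 26.9 and 27.5 CPM and SgshKO libraries 42.9 to 68.1 CPM, with a median of 58.6. The groups did not overlap at any age, but the 3-week difference of 0.34 ± 0.13 did not pass the test (edgeR adjusted p = 0.12). It rose by 0.77 ± 0.17 (0.00199) at 4 months and 1.02 ± 0.11 (4.84e-08) at 8 months on the log2 scale. The 4-month call was lost without SgshKO replicate 1 (adjusted p = 0.0669).

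Map1lc3b encodes LC3B, the protein most used as a marker of autophagosomes. It was at 61.7, 67.7 and 80.9 CPM in WT and 115, 89.0, 92.0 and 102 CPM in SgshKO libraries at 3 weeks, and at 70.6 and 65.2 CPM against 101 and 86.9 CPM at 4 months. At 8 months it was at 70.1, 57.3, 55.4 and 63.9 CPM in WT, and between 76.7 and 88.3 CPM in SgshKO with a median of 83.8. The groups did not overlap at any age, and the 2 highest SgshKO libraries were from 3 weeks. Expressed as log2 fold changes the differences were 0.51 ± 0.10 (edgeR adjusted p = 0.00186), 0.47 ± 0.14 (0.0171) and 0.44 ± 0.09 (0.000229) at the 3 ages. At 4 months the call did not survive leaving out WT replicate 2 (adjusted p = 0.14) or SgshKO replicate 1 (0.209), and with limma on log2(TPM + 1) (0.051).

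Map1lc3a, the LC3A gene, was at 25.7, 26.4 and 25.9 CPM in WT and 35.4, 33.4, 48.4 and 30.0 CPM in SgshKO libraries at 3 weeks. At 4 months it was at 31.8 and 30.8 CPM against 31.7 and 44.8 CPM. At 8 months it was at 25.8, 29.1, 28.6 and 21.3 CPM against 36.3 to 50.1 CPM, with a median of 41.5. The groups were apart at 3 weeks and 8 months and overlapped at 4 months. Fold changes on the log2 scale were 0.50 ± 0.15 (edgeR adjusted p = 0.0407) at 3 weeks, 0.29 ± 0.20 (0.343) at 4 months and 0.67 ± 0.13 (0.000139) at 8 months. The 3-week call was lost without any one of the 3 WT libraries (adjusted p 0.126, 0.109 and 0.111 for replicates 1, 2 and 3), SgshKO replicate 1 (0.0562) or SgshKO replicate 3 (0.18), and in the fit with the replicate number as a block (0.0537).

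Gabarapl2 was low in the age series and did not pass the test at any of the 3 ages (log2 fold change -0.03 ± 0.27, -0.26 ± 0.35 and 0.20 ± 0.21). In the SgshKO ASO libraries it was at 61.5 to 90.5 CPM. The low level is thus one of the age series and not of microglia in general, and its reason was not tested. RefSeq lists 6 pseudogenes named after Gabarapl2 and 8 named after Map1lc3 in the mouse, and how the counting treated reads shared with such copies is not given in the sources used here, so the values of Gabarapl2, Map1lc3a and Map1lc3b are uncertain to that extent.

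**Figure D2:**
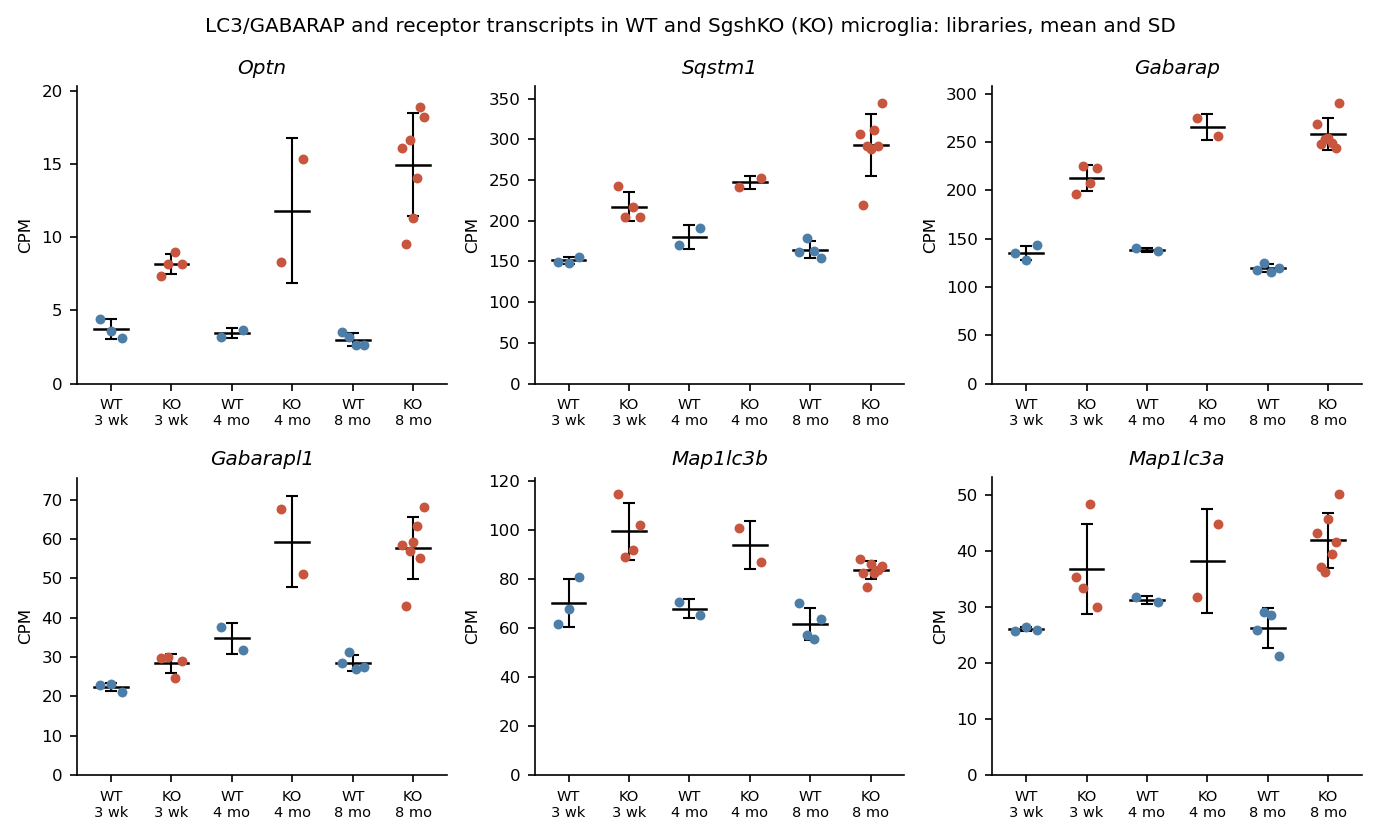
CPM of Optn, Sqstm1, Gabarap, Gabarapl1, Map1lc3b and Map1lc3a (y axis, 1 panel a gene) in the libraries of the 6 genotype and age groups (x axis). Points are libraries and bars the group mean with SD. SgshKO points lie above WT points at each age except for Map1lc3a at 4 months, and at 8 months Gabarap runs from 244 to 290.2 CPM in SgshKO against 115 to 125 CPM in WT.

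Levels can be compared between genes only per transcript length, in TPM as deposited. At 8 months Gabarap had the highest level of the 40 genes in WT libraries (168 ± 5.38 TPM, mean ± SD, n = 4), followed by Sqstm1 (129 ± 6.76) and Ulk2 (104 ± 5.49). Optn had the lowest (1.75 ± 0.236). In SgshKO libraries the order at the top was the same, with Gabarap at 328 ± 15.4 TPM, Sqstm1 at 207 ± 23.1 and Ulk2 at 84.2 ± 15.4 (n = 7). The ranges of these 3 genes did not overlap within either genotype. The gene with the largest fold change of the 40 was thus the least abundant one in WT, and the gene with the smallest adjusted p the most abundant.

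The promoter sequence of the genes that were higher is shown because Mitf, Tfeb and Tfe3 bind E-boxes with the letters CACGTG, and the study lowered these factors. The set of RefSeq promoters used here has a window (GRCm38.p6, 250 bases before to 50 after the start) for 33 of the 40 genes. Atg12, Atg16l1, Becn1, Epg5, Map1lc3a, Pik3c3 and Rb1cc1 have none in that set, so their promoters were not searched. CACGTG, which reads the same on both strands, was found in 4 of the 33 (12.1%), those of Atg3, Atg5, Atg7 and Atg14. Among the 27025 genes with a window the share was 8.09%. The Atg7 window with the motif (chr6:114670846-114671145) lies inside the gene as counted here, which begins at 114643097, and so is not at that start. TCATGTG, another form bound by Mitf, was searched on both strands and found in 0 of the 33, against 4.31% of all genes. The 150 bases before the start follow, 5′ to 3′ on the gene's strand, for Optn, Sqstm1, Gabarap, Gabarapl1 and Map1lc3b, which were higher in SgshKO at 8 months and whose windows hold no CACGTG, and for Atg3 and Atg5, whose windows do. Atg5 was also higher at 8 months, and Atg3 did not pass. CACGTG is in capitals. They are Optn (chr2:5064118-5064267, minus strand), Sqstm1 (chr11:50210821-50210970, minus), Gabarap (chr11:69991220-69991369, plus), Gabarapl1 (chr6:129533042-129533191, plus), Map1lc3b (chr8:121590288-121590437, plus), Atg3 (chr16:45158679-45158828, plus) and Atg5 (chr10:44268189-44268338, plus).
Optn: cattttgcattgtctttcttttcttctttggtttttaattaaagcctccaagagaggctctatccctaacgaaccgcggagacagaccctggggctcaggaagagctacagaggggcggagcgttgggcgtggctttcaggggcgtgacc
Sqstm1: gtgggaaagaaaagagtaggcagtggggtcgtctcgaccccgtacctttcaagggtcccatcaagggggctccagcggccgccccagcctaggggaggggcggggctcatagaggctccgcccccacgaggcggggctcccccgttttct
Gabarap: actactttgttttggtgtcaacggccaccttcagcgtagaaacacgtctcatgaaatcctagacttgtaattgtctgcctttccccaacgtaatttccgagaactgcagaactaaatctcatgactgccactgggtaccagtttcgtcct
Gabarapl1: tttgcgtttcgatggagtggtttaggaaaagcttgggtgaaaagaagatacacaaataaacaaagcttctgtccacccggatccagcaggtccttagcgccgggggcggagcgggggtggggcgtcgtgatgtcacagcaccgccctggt
Map1lc3b: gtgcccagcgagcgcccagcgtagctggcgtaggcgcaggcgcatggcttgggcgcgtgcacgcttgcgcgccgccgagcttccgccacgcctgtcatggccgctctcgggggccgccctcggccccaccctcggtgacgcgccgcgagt
Atg3: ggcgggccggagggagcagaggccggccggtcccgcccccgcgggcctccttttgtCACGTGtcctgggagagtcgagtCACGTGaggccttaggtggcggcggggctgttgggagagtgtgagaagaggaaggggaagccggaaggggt
Atg5: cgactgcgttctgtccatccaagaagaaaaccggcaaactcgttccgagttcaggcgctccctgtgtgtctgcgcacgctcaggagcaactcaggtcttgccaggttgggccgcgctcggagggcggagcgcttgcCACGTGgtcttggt
In Atg3 the motif begins at bases -94 and -71 from the start, and in Atg5 at base -14. A match is a description of the letters and not a site of binding, and a window without one says only that these letters are not there.

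Of the 5 initiation genes, 2 were lower at 8 months and none higher, against 18.9% lower and 21.6% higher among all genes. With 5 genes and no test of roles, this says nothing about initiation as a group. Atg101, a subunit that stabilises Atg13 in the kinase complex, was at 13.2 and 15.3 CPM in WT and 8.56 and 8.77 CPM in SgshKO libraries at 4 months. At 8 months it was at 14.5, 24.1, 19.6 and 19.3 CPM in WT and at 12.5 to 18.6 CPM in SgshKO, with a median of 15.2. The groups were apart at 4 months and overlapped at 8 months, where WT replicate 1 lay among the SgshKO libraries. These were log2 fold changes of -0.72 ± 0.24 (edgeR adjusted p = 0.0322) and -0.35 ± 0.14 (0.0439). Both calls were near the threshold. The 4-month one was lost without any one of the 4 libraries (adjusted p = 0.0724 and 0.255 without WT replicates 1 and 2, 0.0942 and 0.11 without SgshKO replicates 1 and 2). The 8-month one was lost without WT replicate 2 (0.224), 3 (0.0838) or 4 (0.0514) or SgshKO replicate 1 (0.081), 2 (0.0515), 4 (0.0501), 5 (0.0581) or 6 (0.0543), and in the fit with the replicate number as a block (0.0647).

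Rb1cc1 encodes FIP200, the scaffold of the initiation complex. At 8 months it was at 84.3, 69.8, 72.2 and 72.0 CPM in WT and 49.2 to 71.2 CPM in SgshKO libraries, with a median of 57.2. SgshKO replicate 5 overlapped the WT range and the other SgshKO libraries lay below it. The log2 fold change was -0.34 ± 0.11 (edgeR adjusted p = 0.0132), with 0.0674 without WT replicate 1 and 0.0541 without the 2 SgshKO libraries with the highest neutrophil and monocyte sums. The kinase genes Ulk1 and Ulk2 and Atg13 did not pass the test at 8 months (log2 fold changes -0.03, -0.17 and -0.12). Ulk2 passed as lower without SgshKO replicate 2 (-0.26, edgeR adjusted p = 0.011). It also did with limma on log2(TPM + 1) (-0.32, 0.0131), which called Atg13 lower as well.

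Among the lipid supply genes, Atg2a, which moves lipid into the growing membrane, was at 76.2 and 79.7 CPM in WT and 60.0 and 59.8 CPM in SgshKO libraries at 4 months. At 8 months it was at 69.6, 84.4, 80.4 and 76.1 CPM against 64.0 to 78.2 CPM, with a median of 66.8. The groups were apart at 4 months and overlapped at 8 months. These differences were -0.38 ± 0.12 on the log2 scale (edgeR adjusted p = 0.0246) and -0.18 ± 0.07 (0.0451). The 4-month call was lost without any one of the 4 libraries (adjusted p = 0.0888 and 0.198 without WT replicates 1 and 2, 0.0608 and 0.0793 without SgshKO replicates 1 and 2). The 8-month call was lost without WT replicate 2 (0.153) or 3 (0.113), without SgshKO replicate 1 (0.0603), 3 (0.0576), 4 (0.0546), 6 (0.0577) or 7 (0.0583), without both replicates 1 and 3 (0.0947), with no filter on low counts (0.0965), and with a covariate of the Ddx3y minus Xist level, which tracks sex (0.126). Its homologue Atg2b and the lipid scramblase Atg9a had log2 fold changes of -0.01 ± 0.09 and -0.11 ± 0.08 at 8 months and did not pass.

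The PI3-kinase complex makes the lipid that marks the site of membrane growth. Its subunit Becn1 was higher at 8 months by 0.31 ± 0.08 on the log2 scale (edgeR adjusted p = 0.00247), with 64.3, 68.7, 65.1 and 61.6 CPM in WT and a median of 81.7 CPM in SgshKO (68.7 to 87.2). The lowest SgshKO library, replicate 2, was level with the highest WT library. Uvrag, which directs the complex to endosomes, was lower, at 89.3, 90.1, 91.6 and 92.5 CPM in WT and 68.8 to 81.4 CPM in SgshKO with a median of 73.5. The 8-month Uvrag groups did not overlap (log2 fold change -0.28 ± 0.07, adjusted p = 0.00133). Ambra1, a scaffold that binds Becn1, was also lower (-0.26 ± 0.07, 0.00378). The catalytic subunit Pik3c3, its partner Pik3r4 and the targeting subunit Atg14 did not pass (-0.02, 0.17 and 0.01). Of the PI3P readers, Wipi2, which recruits Atg16l1, was lower (-0.24 ± 0.08, adjusted p = 0.0159, and 0.0543 without WT replicate 2), and Wipi1 did not pass (-0.03 ± 0.22).

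The conjugation genes moved in both directions. Atg5, the partner of Atg12 in the conjugate that helps attach LC3, was at 46.1, 34.5, 34.2 and 32.5 CPM in WT and 41.7 to 57.0 CPM in SgshKO at 8 months, with a median of 55.1. WT replicate 1 lay above SgshKO replicate 2, and the other libraries of the groups were apart. Its log2 fold change was 0.52 ± 0.10 (edgeR adjusted p = 0.000286). Atg10, the enzyme that joins Atg12 to Atg5, was low, at 6.38, 5.67, 5.47 and 7.43 CPM in WT and 7.68 to 10.5 CPM in SgshKO with a median of 8.80. The 8-month groups of Atg10 did not overlap (0.56 ± 0.16, adjusted p = 0.00572).

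Atg16l1, which places the conjugate on the membrane, was at 62.2 and 62.9 CPM in WT and 42.9 and 46.1 CPM in SgshKO libraries at 4 months. At 8 months it was at 58.1, 61.3, 61.4 and 65.1 CPM in WT and 46.4 to 60.5 CPM in SgshKO with a median of 52.3. It was lower in all SgshKO libraries at 4 months, and at 8 months SgshKO replicates 6 and 7 reached the WT range. Its log2 fold changes were -0.49 ± 0.13 (edgeR adjusted p = 0.00782) and -0.23 ± 0.08 (0.0192). Without WT replicate 2 the 4-month adjusted p was 0.0721, and without the 2 libraries with the highest neutrophil and monocyte sums the 8-month one was 0.0831. Atg3, Atg7, Atg12 and Atg16l2 did not pass at 8 months (-0.32, 0.22, -0.13 and 0.39). Atg3, the enzyme that hands LC3 to its lipid, missed the threshold at 0.0507, and at 0.14 with the replicate number as a block. It passed as lower with DESeq2's size factors (0.0454), DESeq2 (0.0429), no filter (0.0376), the covariate that tracks sex (0.0162), limma on log2(TPM + 1) (0.00356), and without those 2 libraries (0.022). It also passed without WT replicate 3 (0.0399) or 4 (0.0314) or SgshKO replicate 3 (0.0202), 6 (0.0495) or 7 (0.0373).

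Of the 4 proteases that trim LC3 and GABARAP, Atg4b was lower at 8 months (-0.32 ± 0.07, edgeR adjusted p = 0.00112), at 53.3, 51.3, 47.2 and 50.7 CPM in WT against 34.9 to 43.2 CPM in SgshKO with a median of 41.4. The Atg4b groups did not overlap. Atg4a, Atg4c and Atg4d did not pass (0.44 ± 0.29, 0.13 ± 0.14 and -0.08 ± 0.12). Of the genes that act at fusion with the lysosome, the tether Epg5 was lower (-0.31 ± 0.07, adjusted p = 0.00148), at 65.4, 67.3, 64.8 and 65.5 CPM against 47.4 to 59.8 CPM with a median of 52.3. The Epg5 groups did not overlap either. The SNARE Stx17 and the adaptor Plekhm1 did not pass (0.15 ± 0.12 and -0.01 ± 0.09).

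The split between higher and lower genes differed on the deposited TPM, an alternative that changes the scaling, the test and the genes tested together (12021 genes). With DESeq2's size factors in place of TMM and nothing else changed, 53.0% of the genes called at 8 months were higher, against 53.3%. On log2(TPM + 1) with limma the median of all genes at 8 months was -0.14, against 0.02 with the TMM factors of edgeR. With TPM 33.6% of the called genes were higher. For the 40 genes TPM gave 9 higher and 15 lower, and the 15 held all 9 that edgeR called lower and 6 more. The share of called genes that were higher also moved by over 10 percentage points at 3 weeks (58.8% with TMM, 44.2% with TPM), at 4 months (52.6% and 40.2%) and between 8 months and 3 weeks in SgshKO (50.7% and 39.8%). For the change of the genotype difference it moved from 64.7% to 49.2% (8 months minus 3 weeks) and from 66.1% to 52.5% (8 minus 4 months). No call of the 40 genes at 8 months changed direction under any of these settings.

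Between 3 weeks and 8 months in WT microglia, 2 of the 40 genes were higher (5.0%, against 3.02% of all genes) and none lower (4.63% of all genes). DESeq2 called 5 higher (Calcoco1, Uvrag, Atg4b, Atg3 and Atg13) and 1 lower (Pik3r4), and limma on TPM called 4 higher and 0 lower. At an unadjusted p under 0.05 edgeR had 11 higher and 2 lower. Uvrag rose from 69.1, 73.1 and 75.8 CPM at 3 weeks to 89.3, 90.1, 91.6 and 92.5 CPM (log2 fold change 0.32 ± 0.08, edgeR adjusted p = 0.0145). Its age groups did not overlap in WT. The SgshKO libraries ran from 67.4 to 75.7 CPM at 3 weeks and from 68.8 to 81.4 CPM at 8 months, and the difference between the genotypes in this change did not pass (-0.27 ± 0.11, 0.122). Atg3 rose from 34.7, 33.9 and 23.3 CPM to 43.5, 55.9, 39.9 and 41.5 CPM (0.56 ± 0.16, adjusted p = 0.029). The Atg3 groups were apart, with 3-week replicate 3 low. The Uvrag call was lost without WT 3-week replicate 1 (0.0742) and with the covariate that tracks sex (0.326), and the Atg3 call without 3-week replicate 3 (0.203) or 8-month replicate 2 (0.108).

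In SgshKO microglia 5 of the 40 were higher at 8 months than at 3 weeks (12.5%, against 15.5% of all genes) and 4 were lower (15.1% of all genes). Gabarapl1 rose by 1.02 ± 0.11 on the log2 scale (edgeR adjusted p = 1.19e-07), Optn by 0.88 ± 0.20 (0.00134), Sqstm1 by 0.43 ± 0.09 (0.000476) and Gabarap by 0.28 ± 0.06 (0.00125). Gabarapl2 rose from 5.46, 6.80, 4.07 and 5.41 CPM to 6.30 to 10.7 CPM with a median of 8.11, and its groups overlapped through 3-week replicate 2. Its change was 0.61 ± 0.22 (adjusted p = 0.0355), a call lost without any one of SgshKO 3-week replicates 1 (0.0782), 3 (0.121) and 4 (0.075) or 8-month replicates 1 (0.0771), 3 (0.0634) and 4 (0.0607). Without both libraries with the highest neutrophil and monocyte sums it was 0.48 (0.144), with the covariate that tracks sex 0.57 (0.125), and with no filter on low counts the adjusted p was 0.0583.

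Among the lower genes was Ulk2, an initiation kinase. It fell from 495, 469, 469.7 and 462 CPM at 3 weeks to between 271 and 433 CPM at 8 months, with a median of 353. The groups did not overlap, and leaving out any 1 library kept the call (log2 fold change -0.47 ± 0.09, edgeR adjusted p = 0.000334). Map1lc3b, which was higher in SgshKO than in WT at each age, fell with age within SgshKO by 0.25 ± 0.08 on the log2 scale (0.0252). That call was lost without SgshKO 3-week replicate 1 (0.141) or 4 (0.0657), with the covariate that tracks sex (0.0982) and with the replicate number as a block (0.0649). Epg5 and Ambra1 were also lower (-0.21 ± 0.07 and -0.19 ± 0.07, adjusted p = 0.0296 and 0.0386). Epg5 was lost without SgshKO 3-week replicate 2 (0.111) or 3 (0.0588), and without the 2 libraries with the highest neutrophil and monocyte sums (0.0689). Ambra1 was lost without 3-week replicates 1 (0.18), 2 (0.0585) or 4 (0.0714) or 8-month replicates 3 (0.0571) or 5 (0.0575), without the 2 libraries with the highest sums (0.0822) and with the covariate that tracks sex (0.144).

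Whether the genotype difference itself changed with age was tested as an interaction. From 3 weeks to 8 months the SgshKO minus WT value rose for 3 of the 40 genes (7.5%, against 5.98% of all genes). It fell for none (3.26% of all genes). A fall can be a smaller excess or a larger deficit in SgshKO. The increase was 0.46 ± 0.10 for Gabarap (edgeR adjusted p = 0.00291), 0.67 ± 0.17 for Gabarapl1 (0.0112) and 1.19 ± 0.32 for Optn (0.0184) on the log2 scale. The Optn call was lost without WT 3-week replicate 1 (0.0747) and with the replicate number as a block (0.107), and held without the 2 SgshKO libraries with the highest neutrophil and monocyte sums (1.12, 0.0477). The other 3 genes of the plot by library did not pass, with 0.32 ± 0.14 for Sqstm1 (0.161), 0.17 ± 0.20 for Map1lc3a (0.671) and -0.07 ± 0.14 for Map1lc3b (0.847). Sqstm1 passed only when SgshKO 8-month replicate 2 was left out (0.36, 0.0325). For the 0 genes that fell, 5 had an unadjusted edgeR p under 0.05, DESeq2 called 1 (Atg4b) and limma on TPM called 2 (Uvrag and Atg4b). Atg4b and Uvrag were among the genes lower in SgshKO than in WT at 8 months. Between 3 weeks and 4 months 0 of the 40 passed (2.52% of all genes in either direction), with 1 up and 4 down at an unadjusted p under 0.05. Between 4 and 8 months 0 passed (0.391% of all genes), with 3 up and 1 down, and DESeq2 and limma on TPM gave 0 for both of these age intervals.

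The other genes of the pathway were taken from a list of 45 written from general knowledge, of which 43 were tested in the age series. In SgshKO against WT, 8 were higher and none lower at 3 weeks (5.31% and 3.72% of all genes), 6 higher and 4 lower at 4 months (10.3% and 9.26%), and 15 higher and 10 lower at 8 months (21.6% and 18.9%). Bnip3, a receptor for mitochondria, was higher at each age by 1.33 ± 0.16, 1.76 ± 0.21 and 1.75 ± 0.14 on the log2 scale (edgeR adjusted p = 2.98e-06, 1.68e-06 and 1.79e-10). Of the genes of that list that act at fusion with the lysosome, 3 were also higher at each age. The GTPase Rab7 was higher by 0.48, 0.54 and 0.69, the tethering subunit Vps41 by 0.48, 0.38 and 0.40, and the SNARE Snap29 by 0.59, 0.55 and 0.67. Others of that kind differed, with Vps11 (-0.02) and Vps16 (0.08) not called at 8 months, Vps18 (0.26), Vps33a (0.54), Vps39 (0.16) and Vamp8 (0.40) higher, and Ykt6 lower (-0.52). Between 3 weeks and 8 months, 1 was higher and 2 lower in WT (3.02% and 4.63% of all genes). In SgshKO 8 were higher and 11 lower (15.5% and 15.1%). The SgshKO minus WT value rose over that interval for 2 and fell for 3 (5.98% and 3.26%).

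The ASO sets asked whether lowering Mitf, Tfeb or Tfe3 alters the same genes. In WT mice the 3 ASOs were each compared with the same 4 control ASO libraries, so their values are not independent of one another, and the grp number of the titles was kept as a block. Between the control ASO and PBS 0 of the 39 genes listed passed, and 0.0% of all genes tested. For the 39 genes edgeR gave 2 at an unadjusted p under 0.05, both higher, and DESeq2 and limma on the batch-corrected signal gave 0.

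In this set 1 border macrophage marker and 1 neutrophil or monocyte marker are listed. The first was at 28.9 to 49.3 CPM after the control ASO and 39.1 to 56.2 CPM after the Mitf ASO, and the second at 2.32 to 5.51 CPM over all treatments. Their part in the results was not tested.

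After the Mitf ASO, 3 of 39 genes were higher (7.69%, against 5.77% of all genes) and 1 was lower (2.56%, against 5.21%). Gabarap was at 251, 239, 215 and 211 CPM after the control ASO and 320.4, 336, 283 and 268 CPM after the Mitf ASO, in grp 1 to 4. All Mitf ASO libraries were above all control ASO libraries (log2 fold change 0.40 ± 0.05, edgeR adjusted p = 7.67e-05). Map1lc3b was at 146, 144, 142 and 135 CPM against 177, 191, 166 and 163 CPM, again with no overlap (0.30 ± 0.06, 0.00375). Becn1 was at 30.1, 29.8, 31.8 and 29.1 CPM against 41.2, 35.6, 38.0 and 35.1 CPM (0.31 ± 0.06, 0.00233). The Becn1 groups did not overlap, and PBS libraries, at 29.6 to 32.4 CPM, lay with the control ASO.

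The gene lower after the Mitf ASO was Rb1cc1. It was at 34.3, 44.9, 53.5 and 50.2 CPM after the control ASO and 29.4, 33.7, 40.2 and 37.4 CPM after the Mitf ASO. The groups overlapped, and within each grp the Mitf ASO library was the lower one (log2 fold change -0.37 ± 0.05, edgeR adjusted p = 0.000204). The Rb1cc1 call depends on the block. Without it the adjusted p was 0.245, and on the authors' batch-corrected signal the difference was -0.04 (0.814). The receptor Sqstm1 (0.13 ± 0.05, 0.128), Map1lc3a (0.20 ± 0.08, 0.139) and Gabarapl1 (0.18 ± 0.06, 0.0856) did not pass. The median over the 39 genes was -0.03, and over all genes -0.01.

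After the Tfeb ASO, 0 of 39 genes passed (0.778% of all genes in either direction), with 4 higher and 2 lower at an unadjusted p under 0.05. DESeq2 called 1 higher (Becn1), and limma on the batch-corrected signal called 1 higher (Gabarap). Becn1 was at 35.9, 36.4, 35.5 and 34.9 CPM (log2 fold change 0.24 ± 0.06, edgeR adjusted p = 0.0657). Those libraries were all above the control ASO. Gabarap was at 299, 259.8, 238 and 243 CPM (0.18 ± 0.05, 0.118), and overlapped the control ASO.

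After the Tfe3 ASO, 1 of 39 genes was higher (2.56%, against 1.46% of all genes) and none lower (0.701% of all genes). For the 0 lower genes, 5 had an unadjusted edgeR p under 0.05, DESeq2 called 0 and limma on the batch-corrected signal called 1 (Uvrag). The gene that was higher was Becn1, at 37.2, 35.2, 37.5 and 33.3 CPM, above all control ASO libraries (0.25 ± 0.06, adjusted p = 0.0339). That call was lost in each of the 8 fits that left out 1 library: without control ASO replicates 1 to 4 the adjusted p was 0.11, 0.0891, 0.0631 and 0.0988, and without Tfe3 ASO replicates 1 to 4 it was 0.0859, 0.0754, 0.122 and 0.0503. Gabarap was at 253, 231, 234 and 211 CPM (0.02 ± 0.05), within the range of the control ASO but for 1 library.

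**Figure D3:**
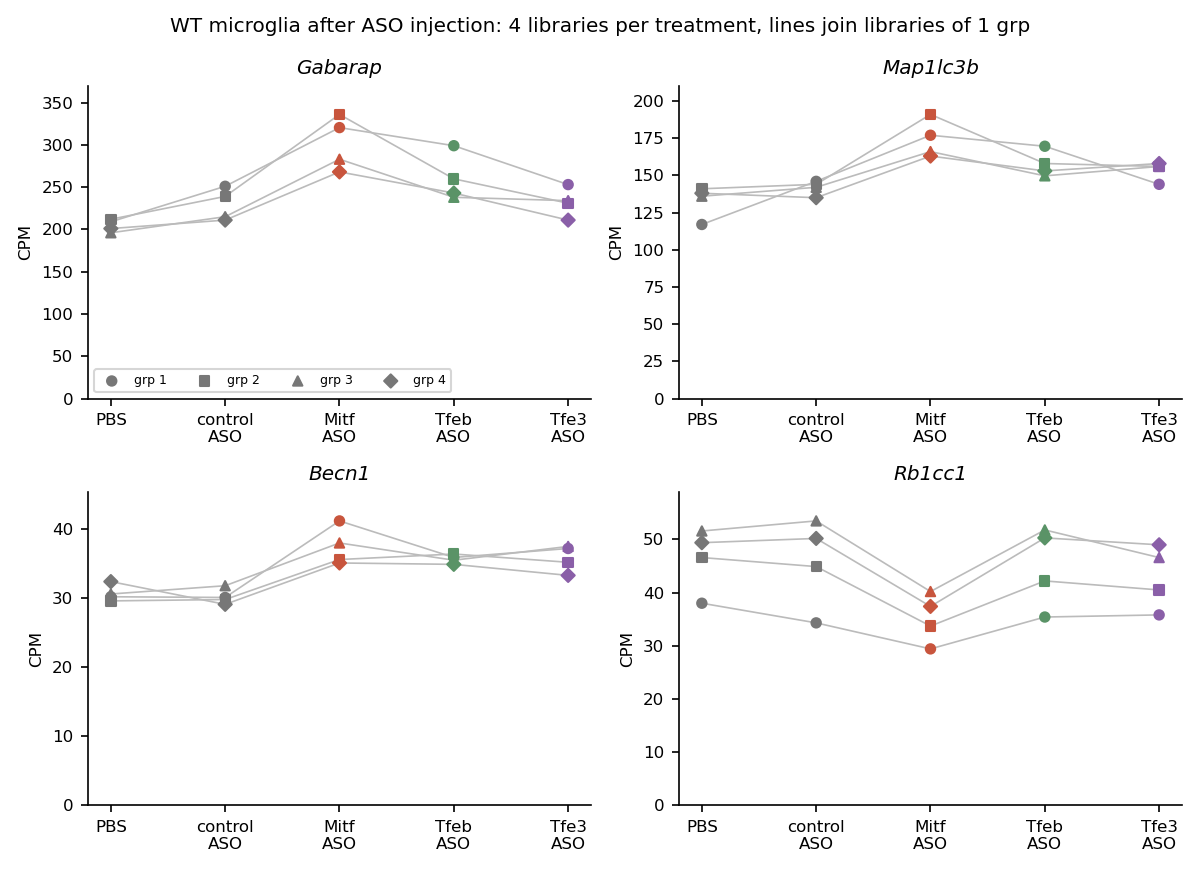
CPM (y axis, 1 panel a gene) of Gabarap, Map1lc3b, Becn1 and Rb1cc1 in the 20 WT ASO libraries by treatment (x axis), with lines joining libraries of the same grp. Gabarap reaches 268 to 336 CPM after the Mitf ASO against 211 to 251 after the control ASO, and the Rb1cc1 lines dip at the Mitf ASO in each grp.

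The ASOs were also compared with one another. Against the Tfeb ASO, the Mitf ASO gave 2 of 39 genes higher (5.13%, against 1.67% of all genes) and 1 lower (2.56%, against 1.86%). Gabarap was higher by 0.22 ± 0.05 (edgeR adjusted p = 0.0258) and Atg5 by 0.27 ± 0.07 (0.0418), and Rb1cc1 was lower (-0.35 ± 0.05, 0.00126). Without the block none of these 3 calls held (0.536, 0.43 and 0.577), and on the batch-corrected signal the Rb1cc1 value was -0.24 (0.139). Atg5 was at 86.6, 90.3, 70.6 and 79.8 CPM after the Mitf ASO and 72.4, 66.4, 60.5 and 71.8 CPM after the Tfeb ASO, with 1 Mitf ASO library inside the Tfeb ASO range. The Gabarap call was lost without Mitf ASO replicate 1 (0.062), 2 (0.117) or 3 (0.0524) or Tfeb ASO replicate 2 (0.105), 3 (0.109) or 4 (0.0595). The Atg5 call was lost without Mitf ASO replicate 1 (0.113), 2 (0.0957) or 4 (0.0847) or Tfeb ASO replicate 2 (0.141) or 3 (0.136).

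Against the Tfe3 ASO, the Mitf ASO gave 1 gene higher (2.56%, against 2.63% of all genes) and 1 lower (2.56%, against 1.13%). Gabarap was higher by 0.38 ± 0.05 (edgeR adjusted p = 0.000161), with no overlap, and leaving out any 1 library kept the call. Rb1cc1 was lower (-0.29 ± 0.05, 0.00331). Without the block its adjusted p was 0.687, and on the batch-corrected signal the difference was 0.01 in the other direction (0.98). Between the Tfeb and Tfe3 ASOs 0 of the 39 genes passed (1.62% of all genes in either direction), with 6 higher and 1 lower after the Tfeb ASO at an unadjusted p under 0.05. DESeq2 called 1 higher (Atg9a) and limma on the batch-corrected signal 1 higher (Gabarap).

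In SgshKO mice, the Mitf and Tfe3 ASOs together gave 2 of 40 genes higher (5.0%, against 4.84% of all genes) and 1 lower (2.5%, against 4.5%), shares near the background. The 7 listed neutrophil and monocyte markers summed to 4.14 to 44.5 CPM in grp 1 and 75.9 to 568 CPM in grp 2, over both arms. The 1 border macrophage marker listed was at 116 to 183 CPM after the control ASO and 155 to 195 CPM after the combined ASOs, and the part of either in the results was not tested. Ulk2 was at 349 to 395 CPM after the control ASO (median 389, n = 8) and 384 to 436 CPM after the combined ASOs (median 425). Combined ASO replicate 3 of grp 1, the lowest, was the one inside the control range. The log2 fold change was 0.16 ± 0.04 (edgeR adjusted p = 0.0128), and leaving out any 1 library kept the call, while the adjusted p was 0.119 in grp 1 alone and 0.126 in grp 2 alone.

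Becn1 was at 41.8 to 47.9 CPM (median 44.9) against 45.8 to 53.3 CPM (median 49.5), and the groups overlapped (0.15 ± 0.04, edgeR adjusted p = 0.037). Atg4c, 1 of the 4 proteases, was at 31.3 to 39.3 CPM (median 35.3) against 27.3 to 37.3 CPM (median 28.5), also with overlap (-0.24 ± 0.07, 0.0294). The Becn1 call was lost in 10 of the 16 fits that left out 1 library and the Atg4c call in 8 of 16. For Becn1 these were the fits without control ASO grp 1 replicates 2, 3 or 4, control ASO grp 2 replicates 1 or 4, combined ASO grp 1 replicates 1, 3 or 4, or combined ASO grp 2 replicates 2 or 3 (adjusted p 0.0509 to 0.0831). For Atg4c they were the fits without control ASO grp 1 replicates 1, 2 or 4, control ASO grp 2 replicates 1 or 3, combined ASO grp 1 replicates 3 or 4, or combined ASO grp 2 replicate 3 (0.0501 to 0.0614). In grp 1 alone and grp 2 alone the adjusted p was 0.173 and 0.261 for Becn1 and 0.263 and 0.0752 for Atg4c.

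The 6 genes of the plot by age did not pass in this comparison. Optn was at 2.80 to 6.26 CPM (median 4.41) after the control ASO and at 2.19 to 5.47 CPM (median 4.30) after the combined ASOs, and the groups lay over each other (-0.13 ± 0.19). Gabarap was at 288 to 369.8 CPM (median 322) against 295 to 354 CPM (median 318), also with full overlap (log2 fold change 0.00 ± 0.04). Sqstm1 had a log2 fold change of -0.08 ± 0.04, Map1lc3a of 0.07, Map1lc3b of 0.05 and Gabarapl1 of 0.01. Apart from Gabarapl2, levels of the ASO and age sets are not compared, since they come from separate tables.

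**Figure D4:**
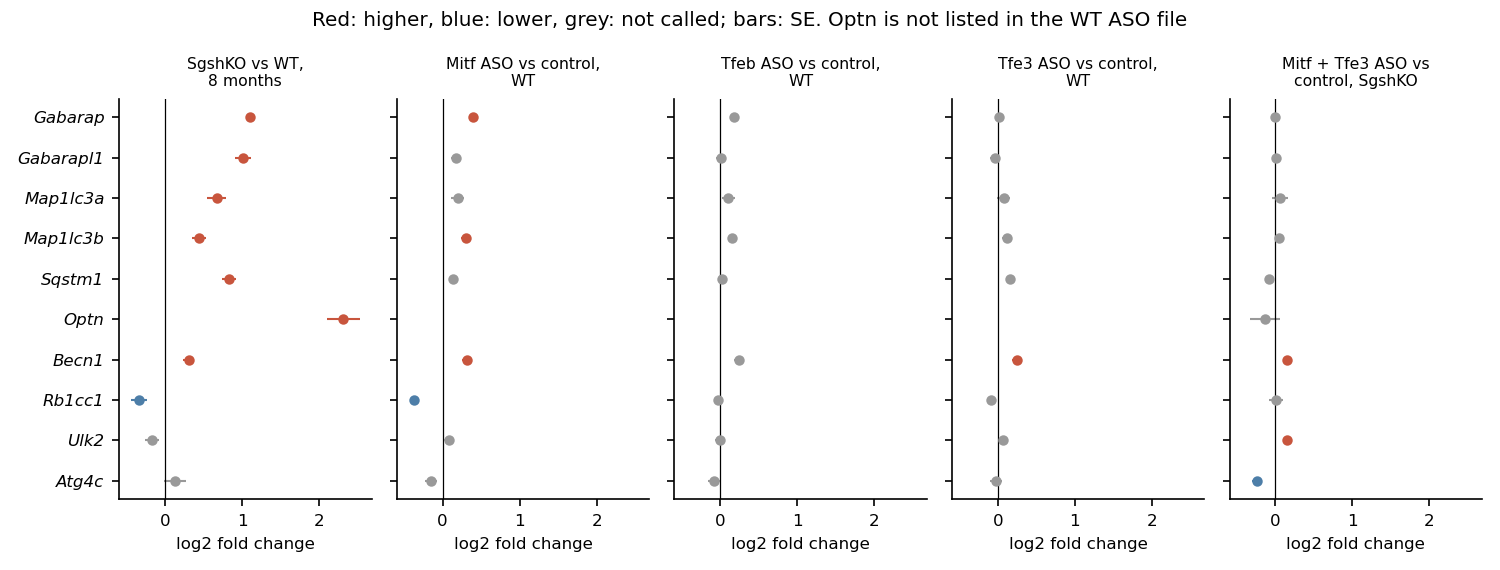
Log2 fold change with 1 standard error (x axis) of 10 of the 40 genes (y axis) in 5 comparisons, SgshKO against WT at 8 months and the 4 ASO comparisons with their control ASO. Red and blue points passed the threshold as higher and lower, grey points did not, and Optn has no point in the WT ASO comparisons. Gabarap lies at 1.11 in SgshKO against WT, at 0.40 after the Mitf ASO in WT, and at 0 after the combined ASOs in SgshKO. Mitf was lowered 28.1-fold in that WT comparison and 4.78-fold in the SgshKO one, and the difference between the 2 ASO effects was not tested.

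Of the list of 45 other autophagy genes, 42 were tested in the WT ASO set and 43 in the SgshKO ASO set. After the Mitf ASO Rab7 (0.26 ± 0.04, edgeR adjusted p = 0.000267) and Vps41 (0.29 ± 0.06, 0.00363) were higher and the transcription factor Foxo3 was lower (-0.16 ± 0.05, 0.0475). That is 2 higher and 1 lower of 42, against 5.77% higher and 5.21% lower among all genes. After the Tfeb ASO 1 of 42 was lower (0.778% of all genes in either direction), Ccpg1, a receptor for the endoplasmic reticulum (-0.54 ± 0.06, 4.48e-05). Ccpg1 was higher after the Mitf than after the Tfeb ASO (0.65 ± 0.06, 1.73e-06) and lower after the Tfeb than after the Tfe3 ASO (-0.61 ± 0.06, 5.86e-06). In all, the Mitf ASO gave 1 of 42 higher and 1 lower against the Tfeb ASO (1.67% and 1.86% of all genes). Against the Tfe3 ASO it gave 3 higher and 0 lower (2.63% and 1.13%). No gene of that list passed after the Tfe3 ASO (1.46% higher and 0.701% lower among all genes). After the combined ASOs in SgshKO mice Vps18, a tethering subunit, was lower (-0.36 ± 0.06, 0.0007), as were Tollip (-0.15 ± 0.04, 0.0342) and Snap29 (-0.15 ± 0.04, 0.0297), while Ccpg1 was higher (0.18 ± 0.05, 0.0305). That is 1 higher and 3 lower of 43, against 4.84% higher and 4.5% lower among all genes.

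The 3 factors were also measured in the age series. Mitf was higher in SgshKO at each age, by 0.47 ± 0.11, 0.61 ± 0.14 and 0.84 ± 0.09 on the log2 scale (edgeR adjusted p = 0.00582, 0.00344 and 5.7e-08). Tfeb (0.08, -0.23 and 0.21) and Tfe3 (0.08, -0.15 and 0.06) did not pass at any of the 3 ages.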

How the data were processed

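The authors deposited raw read counts per gene, TPM for the age series, and batch-corrected normalised signal for each ASO set. The method of that correction is not given in the sources used here. STAR 2.5.3a, kallisto 0.44.0, HOMER 4.11, DESeq2 1.36.0 and R 4.2.3 and the mouse build mm10 are named per the submitters' processing notes. TPM of the listed genes summed to 546451 to 570026 per library in the deposited table.

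The raw counts, as deposited, were fitted once per table with edgeR 4.0.16 (R 4.3.3; TMM normalisation, genes kept by filterByExpr at min.count 10, quasi-likelihood F test, Benjamini-Hochberg over all genes, threshold 0.05), and all 40 genes passed the filter in the age series. The filter kept every gene of the ASO tables. Standard errors are the log2 fold change divided by the square root of F, so they restate the test. Alternatives were DESeq2 1.42.0, limma 3.58.1 on log2(TPM + 1), log2(TPM + 0.1) (mean TPM of at least 1) and log2(signal + 1), DESeq2 size factors, no filter, a replicate block, a Ddx3y minus Xist covariate, and leaving out each library in turn (58 fits). The edgeR script was tested on simulated data.

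In the WT ASO set, replicate numbers equal the grp number of the titles. Same-numbered libraries deviated together (r 0.122 to 0.640 over all pairs), so grp was kept as a block. One PBS library is in grp 4 by its title and grp 3 by its column name. In the SgshKO ASO set grp was a term.

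The members and gene lists were chosen with earlier results of these data known. Genes were named with values per library if called at 2 or more ages in one direction, among the up to 6 largest called changes of a comparison, or called in opposite directions. Other members appear by role. Promoters are from RefSeq (GRCm38.p6).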

Additional observations from a re-analysis of the deposited data

Results flagged for a closer look

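For 3 genes the difference between SgshKO and WT itself differed between 8 months and 3 weeks by the interaction test, by 1.19 (Optn), 0.67 (Gabarapl1) and 0.46 (Gabarap) on the log2 scale.

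Some single libraries stood apart from the rest of their group, in 7 of the 106 sets of 4 to 8 libraries examined, and chance gives about 1 in 20. Gabarapl1 was lowest in SgshKO 3-week replicate 3 (24.8 CPM, the others 29.0 to 29.9), and Atg101 in SgshKO 3-week replicate 1 (11.6 CPM, the others 14.2 to 14.4). Atg2a was highest in SgshKO 8-month replicate 5 (78.2 CPM, the others 64.0 to 69.6). After the Mitf ASO, Gabarapl1 was lowest in grp 4 (36.4 CPM, the others 41.1 to 42.0). After PBS, Atg5 was highest in grp 2 (80.2 CPM, the others 61.5 to 64.4). In SgshKO mice, Atg101 was highest in control ASO grp 1 replicate 2 (18.1 CPM, the others 9.12 to 13.1), and Atg4c in combined ASO grp 1 replicate 2 (37.3 CPM, the others 27.3 to 31.0).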

How the results depend on the processing

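Of 979 values recomputed for the 58 calls named, 840 stayed on the same side of the threshold, 138 lost the call and 1 reversed, Rb1cc1 for Mitf against Tfe3 ASO at 0.007 on the batch-corrected signal. Of the 58 calls, 30 held under all alternatives run, and the cause of the changes was not tested. The counts of the 40 genes moved by over 1.5 times as follows. At 4 months, lower, 3 became 1 with no filter. At 8 months, lower, 9 became 15 with either TPM pseudocount. Over age in WT, higher, 2 became 5 with DESeq2, 1 with the sex covariate and 4 with TPM, and lower, 0 became 1 with DESeq2. Over age in SgshKO, lower, 4 became 2 with no filter, 1 with the replicate block, 2 with the covariate and 2 without the 2 libraries highest in neutrophil and monocyte markers (an alternative chosen after seeing the data). For a fall in the SgshKO minus WT value from 3 weeks to 8 months, 0 became 1 with DESeq2 and 2 with TPM.

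After the Mitf ASO, lower, 1 became 0 on the batch-corrected signal and 0 with no replicate block. After the Tfeb ASO, higher, 0 became 1 with DESeq2 and 1 on the corrected signal. After the Tfe3 ASO, higher, 1 became 0 on the corrected signal and 0 with no replicate block, and lower, 0 became 1 on the corrected signal. For Mitf against Tfeb ASO, higher, 2 became 0 with no replicate block, and lower, 1 became 0 there and on the corrected signal. For Mitf against Tfe3 ASO, lower, 1 became 0 in both. For Tfeb against Tfe3 ASO, higher, 0 became 1 with DESeq2 and on the corrected signal. After the combined ASOs, higher, 2 became 4 with DESeq2, 4 with the replicate block, 1 without grp, and 0 in grp 1 or grp 2 alone, and lower, 1 became 2 on the corrected signal and 0 without grp or in either grp alone.

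Leaving out 1 library gave 2 to 4 higher and 0 to 2 lower at 4 months. Over age it gave 1 to 3 higher and 0 to 1 lower in WT, and 2 to 4 lower in SgshKO. For a fall in the SgshKO minus WT value from 3 weeks to 8 months it gave 0 to 2. In the ASO sets it gave 1 to 2 lower after the Mitf ASO and 0 to 0 higher after the Tfe3 ASO. It gave 0 to 2 higher for Mitf against Tfeb and 0 to 1 higher for Tfeb against Tfe3. After the combined ASOs it gave 1 to 4 higher and 0 to 1 lower. With no replicate block, calls over all genes fell from 1128 to 211 (Mitf), 80 to 9 (Tfeb) and 222 to 29 (Tfe3). Leaving out 1 library also moved calls over all genes, to 664 from 1094 for age in WT (without 3-week replicate 3; 727 without replicate 2), to 621 at the lowest for the Mitf ASO (without control ASO replicate 1), to 24 for the Tfeb ASO (without control ASO replicate 1) and to 79 for the Tfe3 ASO (without Tfe3 ASO replicate 3). With the sex covariate the calls for age in WT were 469. After the combined ASOs 988 became 452 without grp, and 192 and 430 in grp 1 and grp 2 alone. DESeq2 called 213 genes after the Tfeb ASO and 403 after the Tfe3 ASO. Without the 2 libraries highest in neutrophil and monocyte markers, 15 of the 18 calls at 8 months held (all 9 higher, 6 of 9 lower), and Atg3 passed as lower. In the age series same-numbered libraries share only a number (r -0.171 to 0.115 at 3 weeks), and in the SgshKO ASO set r was 0.088 to 0.612 in grp 1 and 0.0839 to 0.156 in grp 2. Optn was at 2.64 to 4.42 CPM in WT, a low level for counting.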
